A study of Homo sapiens with 6 samples.

Results

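The response of epithelial cells to the compound Cmp302 was read from the control line of the study, 3 of its 6 arrays. The line is HMLE, immortalised human mammary epithelial cells, infected with the pBabe-shGFP retrovirus, which carries a hairpin against GFP. One array held cells given the solvent DMSO, and 1 array each held cells given Cmp302 at 5 µM and at 10 µM according to the sample titles. The protocols name the same doses with 6 h of treatment. The source names and treatment tags disagree and give 2 µM for both arrays, after 4 h in one and 8 h in the other. Titles are used as array names here, and a step of dose and a step of time cannot be told apart. The remaining 3 arrays hold the same treatments of HMLE cells infected with a pBabe-Twist retrovirus. Nothing in the labels says that arrays came from separate cultures, and Cmp302 is known by its code name only.

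The members are the genes that lay on the same side of DMSO at both levels. Of 19775 genes read on the array, 12034 were measured, meaning above a floor of 3.71 log2 units on at least 1 control-line array. Of the 12034, 8 differed by 2-fold or more in 1 direction at both levels and 109 by 1.5-fold or more. A probe set is a group of short probes against 1 stretch of a transcript. Each gene was read by its brightest probe set, the one with the highest mean signal over all 6 arrays. The other probe sets of the gene, which did not enter the choice, were then compared with it. Both differences use the same DMSO array, so agreement between them is not independent, and with 1 array per group no difference has a replicate check.

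HMLE cells are basal-like mammary epithelial cells that carry keratins, desmosomes and E-cadherin. Twist is a transcription factor that represses epithelial genes and drives the epithelial-mesenchymal transition. The aryl hydrocarbon receptor, which recurs below, is a cytosolic receptor for planar small molecules. It enters the nucleus on ligand binding, pairs with ARNT and switches on CYP1A1, CYP1A2, CYP1B1, TIPARP and its own repressor AHRR.

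Epithelial markers were present on all 3 arrays, and so were most mesenchymal ones. All 7 epithelial markers read were above the floor on every control-line array, from 11.81 for GRHL2 to 13.84 for KRT14 with DMSO. Of 8 mesenchymal markers 6 were also above the floor on every control-line array, with VIM at 11.68, CDH2 at 10.95, COL1A1 at 8.70, ZEB1 at 6.23, ZEB2 at 4.51 and PDGFRB at 4.00 with DMSO. PRRX1 and COL1A2 were at the floor on all 3 arrays. Of the blood, endothelial and fat cell markers, PTPRC and others were at the floor, and CD14 (4.81), PECAM1 (4.05) and FABP4 (8.18) lay above it with DMSO. One measure of RNA quality moved with the compound. For GAPDH and ACTB together, probe sets at the 3' end exceeded those from the transcript middle in log2 signal by 0.28 on average with DMSO, by 0.45 at 5 µM and by 0.84 at 10 µM. In the Twist line the same contrast ran the other way, from 0.96 with DMSO to 0.36 and 0.45. Its part in the differences described below was not tested.

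Most genes lay close to DMSO. The changes had an SD over genes of 0.23 log2 units at 5 µM and 0.32 at 10 µM, and 92.7% of measured genes stayed within 1.5-fold at both levels. At 5 µM, 7 genes were 2-fold higher (0.0585% of those measured) and 8 were 2-fold lower (0.0668%). At 10 µM, 24 were higher (0.2%) and 31 lower (0.259%). The split of higher and lower genes moved with the scaling between arrays. Quantile normalization gave 30 higher and 20 lower genes at 10 µM and 9 and 7 at 5 µM, and the deposited scaling gave 10 and 7 at 5 µM. At both levels 3 genes were 2-fold higher (0.0249%) and 5 were 2-fold lower (0.0415%), against 5 and 5 under either other scaling. For comparison, the Twist line had 1041 of 11974 measured genes past 2-fold in 1 direction at both levels (8.69%). In the plot of both changes the genes past 1.5-fold form small tips of a dense cloud around 0.

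**Figure D1:**
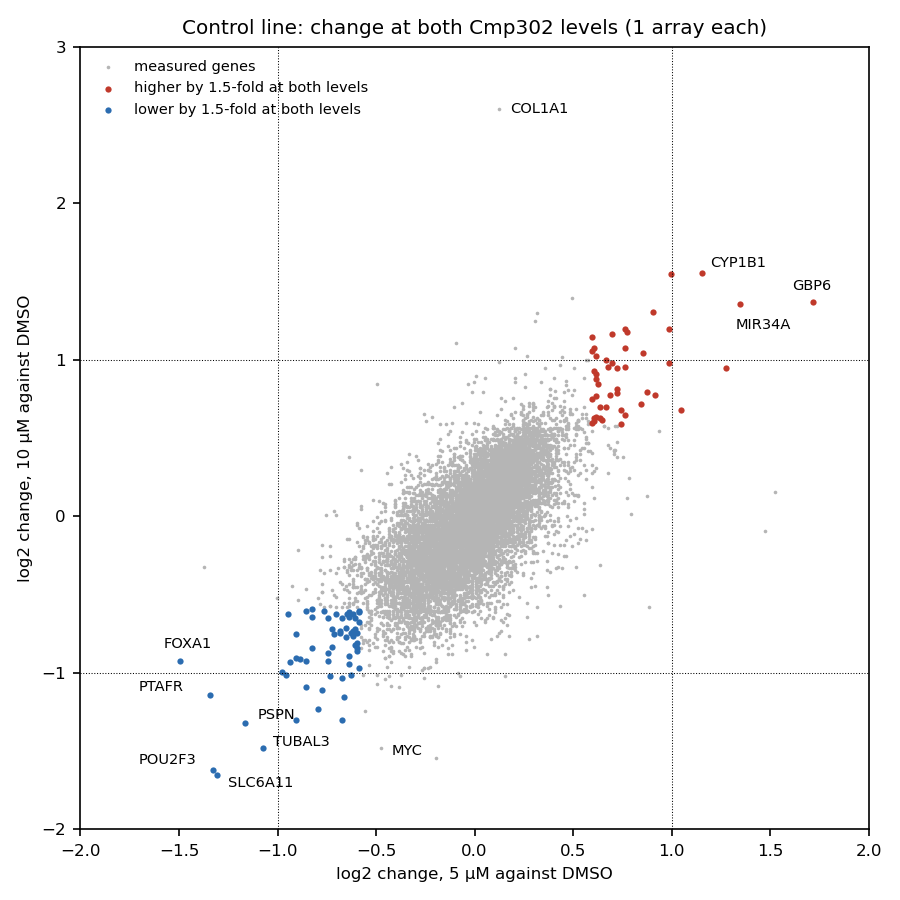
Log2 change of measured genes in the control line at 5 µM (x axis) and at 10 µM (y axis) against the shared DMSO array. Each group has 1 array, and dotted lines mark 2-fold. Blue points are the 61 genes lower by 1.5-fold at both levels. Red points are most of the 48 genes higher by 1.5-fold, a few of which are not drawn. COL1A1 and MYC passed 2-fold at 10 µM alone.

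CYP1B1 was the gene past 2-fold higher with the most agreement between probe sets. It encodes a cytochrome P450 that oxidises aromatic hydrocarbons and estradiol. Its brightest probe set read 9.58 with DMSO, 10.73 at 5 µM and 11.13 at 10 µM, which is 2.23-fold and 2.94-fold higher. Another probe set read 7.91, 8.87 and 9.60, and the next read 7.66, 8.55 and 8.93. All 3 were thus lowest with DMSO and highest at 10 µM, and 1 more was at the floor. CYP1B1 was the 1 gene of the 8 whose other measured probe sets passed 1.5-fold at both levels. All of its probe sets carry a suffix that marks possible cross-hybridisation. In the Twist line its brightest probe set read 9.95, 10.35 and 9.55, so the 10 µM array lay below DMSO there. The other probe sets lay above Twist DMSO at both levels, at 7.76, 9.11 and 8.53 and at 6.75, 9.41 and 8.33 in the same order.

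The other genes of the aryl hydrocarbon receptor list showed smaller differences of mostly the same sign. Of 9 measured members, 7 lay above DMSO at both levels and 2 below, with medians of 0.11 at 5 µM and 0.21 at 10 µM. CYP1A1 and CYP1A2 were at the floor with DMSO and could only lie above it. Of the 7 members above the floor with DMSO, 5 lay above at both levels and 2 below, with medians of 0.14 and 0.17. CYP1B1, which was chosen for its own change, is counted in the 9 and in the 7. These counts and medians therefore describe the list and give no support. Over all measured genes 34.9% lay above DMSO at both levels and 41.2% below, with medians of -0.01 and -0.03. The receptor AHR itself read 10.85, 11.19 and 11.17. TIPARP, a member of the poly-ADP-ribose polymerase family that restrains the receptor, read 11.79, 12.08 and 11.95. With the compound CYP1A1 read 3.81 and 4.27, and CYP1A2 read 3.82 and 3.93. AHRR, ALDH3A1 and UGT1A6 stayed at the floor on all 3 arrays. CYP1B1 was the only member past 1.5-fold at both levels. LMCD1 (-0.10 and -0.44) and SLC7A5 (-0.06 and -0.12) were the members below DMSO.

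Promoters of this group are shown because most members lay on the same side of DMSO and the receptor binds a known short core. CYP1B1 had no matched promoter entry and is not shown. CYP1A1, which is shown, was at the floor with DMSO and could only lie above it. RefSeq promoters (GRCh38.p14, 250 bases before to 50 after a start) were searched for GCGTG on either strand, read as CACGC on the printed strand where it lies on the other. The core is in capitals in the first listed entry of each gene, which has 1 match for CYP1A1 and 2 for TIPARP. Of 35116 promoters of that length, 36.5% hold the core, so a match is a description of the sequence only.
CYP1A1 promoter, chr15:74725479-74725778, minus strand: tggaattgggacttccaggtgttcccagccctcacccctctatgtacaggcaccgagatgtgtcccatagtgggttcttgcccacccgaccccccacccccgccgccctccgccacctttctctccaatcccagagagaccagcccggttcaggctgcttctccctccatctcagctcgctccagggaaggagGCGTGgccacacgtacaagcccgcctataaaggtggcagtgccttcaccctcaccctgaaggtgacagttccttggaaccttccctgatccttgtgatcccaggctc
TIPARP promoter, chr3:156674340-156674639, plus strand: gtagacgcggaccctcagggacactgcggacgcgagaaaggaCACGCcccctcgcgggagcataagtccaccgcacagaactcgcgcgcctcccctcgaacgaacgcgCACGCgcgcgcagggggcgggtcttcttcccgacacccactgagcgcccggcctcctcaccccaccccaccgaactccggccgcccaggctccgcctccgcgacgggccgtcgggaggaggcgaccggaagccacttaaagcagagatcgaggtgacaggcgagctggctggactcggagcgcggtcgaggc

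GBP6, of the family of interferon-inducible guanylate-binding proteins, had the widest difference at 5 µM of the genes higher at both levels. It read 5.58 with DMSO, 7.29 at 5 µM and 6.94 at 10 µM, or 3.28-fold and 2.58-fold higher. Its other measured probe set read 5.32, 5.65 and 5.93, the same direction at 0.34 and 0.62 log2 units. The interferon response list did not share the pattern, with 6 of 14 measured members above DMSO at both levels, 5 below and medians of 0.04 and -0.03. MIR34A was read by a single probe set at 5.10, 6.44 and 6.45, or 2.54-fold and 2.56-fold higher. Both treated arrays stood at nearly the same level above DMSO. The gene makes the precursor of miR-34a, a microRNA known as a p53 target, and the probe set does not measure the mature form. The mature sequence is given to identify the product, with its seed (bases 2 to 8) in capitals.
hsa-miR-34a-5p, RefSeq, GRCh38.p14: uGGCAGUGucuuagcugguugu

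The p53 target list, into which miR-34a would fall by its known regulation, had 6 of 16 measured members above DMSO at both levels and 5 below. Its median was -0.06 at 5 µM and 0.20 at 10 µM, and the latter was -0.04 without the suffixed probe sets.

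Of the 5 genes past 2-fold lower, all but PSPN had no signal above the floor in the Twist line. POU2F3, a POU-domain transcription factor of tuft cells and squamous epithelia, read 5.60, 4.27 and 3.97, or 2.51-fold and 3.08-fold lower, with no other measured probe set. SLC6A11, a transporter of the transmitter GABA, read 7.65, 6.34 and 5.99. Its other measured probe sets differed by -0.13 and -0.39 and by 0.04 and -0.01, far less than the 2.47-fold and 3.15-fold of the brightest one. PTAFR, the receptor for platelet-activating factor, read 7.06, 5.71 and 5.91, while its other probe sets differed by -0.10 and -0.37 and by -0.12 and -0.29. For SLC6A11 and PTAFR the size of the difference therefore rested on 1 probe set each.

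TUBAL3, an alpha-tubulin-like gene, read 7.61, 6.53 and 6.12, or 2.11-fold and 2.80-fold lower. PSPN, a ligand of the GDNF family, read 7.29, 6.12 and 5.96, or 2.24-fold and 2.50-fold lower. PSPN was the gene of the 5 that was also lower in the Twist line, at 7.33, 6.50 and 6.52. Neither gene had another measured probe set. In all 5 genes the DMSO array stood above both treated arrays by more than 1 log2 unit.

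**Figure D2:**
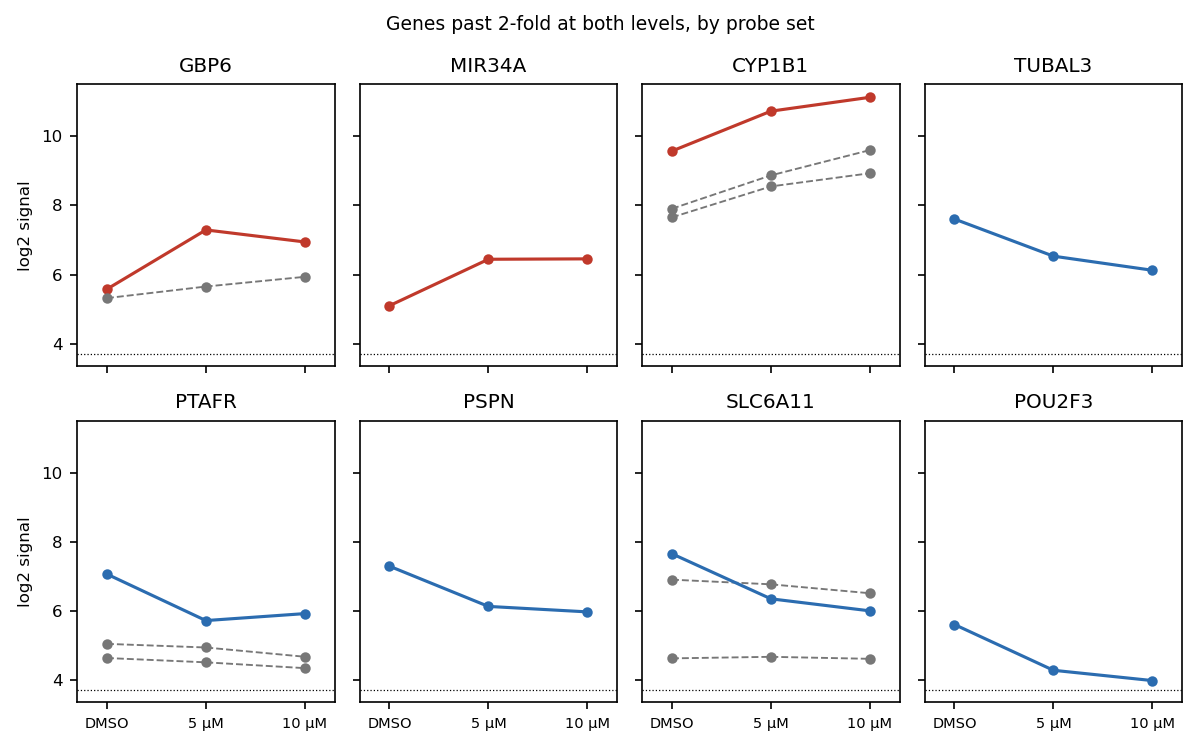
Log2 signal on the 3 control-line arrays for the 8 genes past 2-fold at both levels, with the brightest probe set as a solid coloured line, other measured probe sets as dashed grey lines and the floor dotted. The dashed lines of CYP1B1 run parallel to the solid one, whereas those of SLC6A11 and PTAFR are flatter.

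Members just inside and outside the 2-fold line differed little. MIR34A (1.34 and 1.36) and CYP1B1 (1.16 and 1.56) lay inside, and ATXN7L3-AS1 (0.995 and 1.55) and VHL (0.98 and 0.98) just outside. On the lower side TUBAL3 (-1.08 and -1.48) lay inside, and PRCD (-0.98 and -0.99) and ANO1 (-0.96 and -1.01) just outside.

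At the 1.5-fold line, 48 genes were higher at both levels (0.399%) and 61 lower (0.507%). Each level alone gave 82 higher (0.685%) and 153 lower (1.28%) at 5 µM, and 205 higher (1.71%) and 552 lower (4.61%) at 10 µM. The 2 sets differed in the kind of gene they held. Of the 48 higher genes 23 were not protein coding (47.9%), 17 of them long noncoding RNAs and 4 pseudogenes, whereas 6.51% of all measured genes were not protein coding. Of the 61 lower genes 2 were not protein coding (3.28%). The wider noncoding classes had medians near 0. The 233 measured antisense transcripts had a median within 0.1 of 0 at both levels, with 5 past 1.5-fold higher and 1 lower. Of 102 LINC transcripts 3 were past it higher and none lower. Of all 12034 measured genes 48 were past it higher (0.399%), a smaller share than in either class. Both classes were drawn up after the values were seen and hold some of the 48, so their counts give no support.

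Among the noncoding members, ATXN7L3-AS1 read 6.45, 7.44 and 7.99 and MCM3AP-AS1 read 7.64, 8.40 and 8.83, both antisense transcripts. RNF139-DT, a divergent transcript, read 5.61, 6.51 and 6.91, and LINC01410 read 8.18, 9.03 and 9.22. Each of these 4 was lowest with DMSO and highest at 10 µM, but another probe set of MCM3AP-AS1 read 4.97, 5.06 and 4.78, so its difference rested on 1 probe set. LOC105372255 (5.38, 6.65 and 6.32), FAM218A (5.44, 6.31 and 6.23) and LINC00342 (5.04, 5.95 and 5.81) were highest at 5 µM. The pseudogenes SMG1P5 (5.11, 6.09 and 6.30) and FDPSP2 (4.23, 5.00 and 5.40) share sequence with their parent genes, so their reading is uncertain.

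Among the coding members, VHL, the substrate receptor of the ubiquitin ligase for HIF-alpha, read 5.80, 6.78 and 6.77. The hypoxia and glycolysis list, which holds HIF targets, had medians of 0.01 at both levels. PABPN1, the nuclear poly-A binding protein, read 7.15, 7.91 and 8.22, and TIGD4, which derives from a transposase, read 4.04, 4.80 and 4.99. Unlike these coding genes, MIR205HG, the host transcript of the epithelial microRNA miR-205, is noncoding and read 7.38, 7.98 and 8.00. The microRNA entry MIR205 read 5.81, 7.33 and 5.96, high at 5 µM alone, and its probe set does not measure the mature form. ZEB2, a repressor of E-cadherin, read 4.51, 5.14 and 5.13, and was the only mesenchymal list member past 1.5-fold at both levels. MIR205HG and MIR205 were chosen after their values were seen.

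Luminal and secretory genes were among the lower members. FOXA1, the pioneer factor of luminal mammary cells, read 6.55, 5.05 and 5.62, and ESR1, the estrogen receptor, read 6.06, 5.28 and 4.94. AGR2, a secretory disulfide isomerase often found with them, read 6.55, 5.87 and 5.89. None of these genes had another measured probe set, although the array holds 9 probe sets for ESR1. A list of luminal and hormone-related genes was drawn up after these values were seen. Of its 11 measured members 8 lay below DMSO at both levels and 1 above, with medians of -0.24 and -0.27. Over all measured genes 41.2% lay below at both levels. The list holds FOXA1, ESR1 and AGR2, its 3 members past 1.5-fold lower, so its counts describe the genes and give no support. PGR, TFF1 and TFF3 were at the floor on all 3 arrays. KRT18, a luminal keratin, read 13.37, 13.13 and 12.63.

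Other lower members had varied known roles. ANO1, a calcium-activated chloride channel, read 6.39, 5.43 and 5.37, and GABRP, the pi subunit of the GABA-A receptor, read 7.34, 6.54 and 6.10. HOMER2, a postsynaptic scaffold, read 8.02, 7.16 and 6.92, although its unsuffixed probe set differed by 0.28 and -0.78, and PRCD, a photoreceptor disc protein, read 5.20, 4.22 and 4.20. GGT6, of the gamma-glutamyltransferase family, read 6.18, 5.24 and 5.24, and GPX2, a glutathione peroxidase, read 6.47, 5.64 and 5.62. In these 6 genes both treated arrays lay below DMSO, and the 2 treated arrays of ANO1, PRCD, GGT6 and GPX2 differed by less than 0.1. LCP1, the actin-bundling protein L-plastin, read 5.50, 4.61 and 4.58, and MYEOV read 8.01, 7.10 and 6.70.

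Probe set agreement was partial. Of the 48 higher genes 26 had other measured probe sets, 45 in all. Of these 29 lay above DMSO at both levels (64.4%), 7 below (15.6%) and 12 were also past 1.5-fold (26.7%). For the noncoding members 17 of 19 other probe sets lay on the same side (89.5%), none on the opposite side at both levels, and 9 passed 1.5-fold. These 19 belonged to 12 genes and were spread unevenly over them, so they are not separate members. In 10 of the 12 genes all other probe sets lay on the same side. For the coding members 12 of 26 lay on the same side and 7 on the opposite side, and in 5 of 14 genes all lay on the same side. RBM6 and GLMP are examples in which a probe set went the other way.

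For the 61 lower genes 18 had 30 other measured probe sets. Of these 23 lay on the same side (76.7%) and 2 on the opposite side (6.67%), those of CLTB and FAM83A, but only 2 passed 1.5-fold. Of the other probe sets of all genes measured, 43.0% lay on the same side as the brightest one at both levels, 30.7% on the opposite side and 1.28% passed 1.5-fold with it. A single measured probe set stood behind 22 of the higher and 43 of the lower genes, so no agreement could be read for them. The median SD between probe sets of a gene was 0.23 log2 units at 10 µM. Probe sets of a gene share the RNA and the array, so they give no replicate of the treatment.

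**Figure D3:**
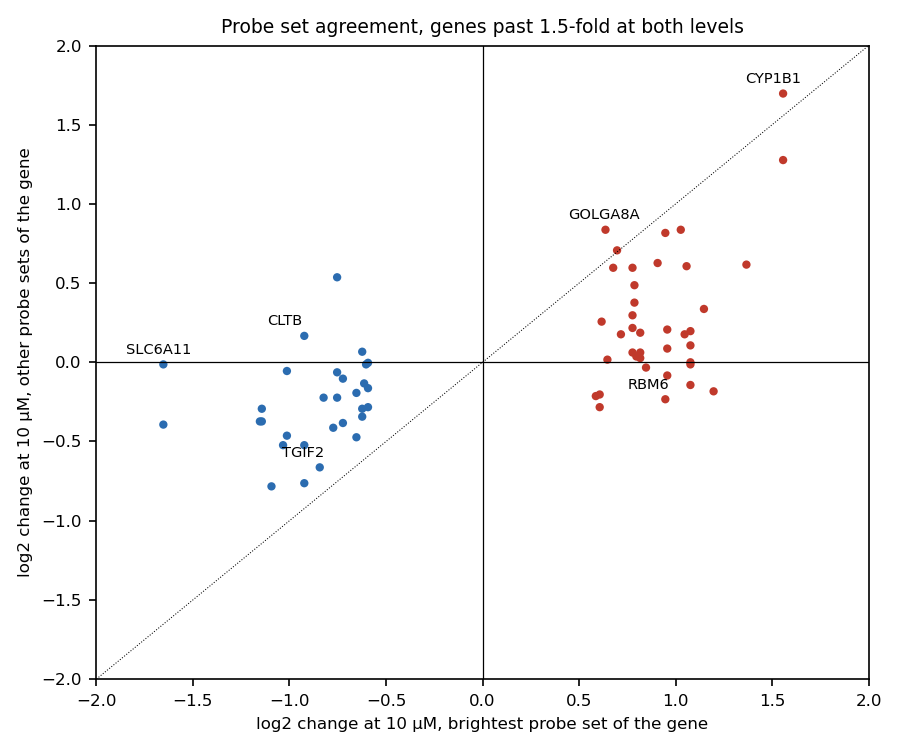
Log2 change at 10 µM of other measured probe sets (y axis) against that of the brightest probe set of the same gene (x axis). The genes are most of those past 1.5-fold higher (red) or lower (blue) at both levels, and the dotted line marks equal change. Most points lie between the dotted line and 0, and CYP1B1 has a probe set above the line.

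Gene families gave small differences. The 35 lists hold 649 distinct genes, of which 538 were measured, and CYP1B1 was the only one past 2-fold at both levels. List medians at 10 µM ran from -0.46 to 0.21. The lowest list, keratins and basal markers, had medians of -0.28 and -0.46. Of its 13 measured members 9 lay below DMSO at both levels (69.2%) and 2 above, against 41.2% and 34.9% of all measured genes. KRT5, the basal keratin, read 13.38, 12.82 and 12.58, and its partner KRT14 read 13.84, 13.56 and 13.37. KRT15 read 12.41, 11.77 and 11.92. ITGB4, the integrin subunit of hemidesmosomes, read 10.64, 9.81 and 10.04, and all 3 of its other measured probe sets lay below DMSO at both levels. SFN (0.17 and 0.26) and DST (0.22 and 0.15) were the members above, and both other probe sets of SFN lay below.

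The cornified envelope and differentiation list had medians of -0.09 and -0.36, with 10 of 18 members below at both levels (55.6%) and 4 above. Of all measured genes 41.2% lay below DMSO at both levels and 34.9% above. KRT1, a suprabasal keratin, read 5.94, 5.19 and 5.06, and the protease KLK5 read 12.13, 11.69 and 11.51. S100A9, a subunit of calprotectin, read 8.60, 7.98 and 8.03. LCE3D, KRT10, CNFN and KLK7 lay above DMSO at both levels. Epithelial junction genes had medians of -0.06 and -0.12, with 15 of 25 below at both levels (60.0%) and 8 above. The desmosomal plakophilin PKP3 read 10.30, 9.73 and 9.48, and CDH3, P-cadherin, read 12.13, 11.58 and 11.45, while CDH1, E-cadherin, read 13.24, 13.10 and 13.03. Among the desmosomal genes PKP1 and PKP3 lay below DMSO at both levels, and DSP, DSC2 and DSG3 above, although every other measured probe set of DSC2 and DSG3 lay below.

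Signalling target lists were mostly below DMSO or near it. Of 17 NF-kB and inflammatory genes 13 lay below at both levels (76.5%) and 1 above, against 41.2% and 34.9% of all measured genes. The list medians were -0.16 and -0.30. RELB, a subunit of NF-kB, read 4.76, 4.17 and 4.08, and CXCL3, a neutrophil chemokine, read 9.70, 9.27 and 9.29. The value at 10 µM was -0.20 with the floor at the 65th percentile. Of 13 TGF-beta and BMP targets 9 lay below and 1 above, with medians of -0.22 and -0.30, the latter -0.13 by the median over probe sets. ID1, an inhibitor of basic helix-loop-helix factors, read 8.77, 7.99 and 8.28. Glucocorticoid receptor targets had medians of -0.04 and -0.13, metallothioneins of 0.04 and -0.14, and core and linker histones of -0.22 and -0.08. Without the suffixed probe sets the medians at 10 µM were -0.37, -0.42 and 0.11 in the same order.

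Most ribosomal, proteasome and respiratory chain genes lay below DMSO at both levels, against 41.2% of all measured genes. All 12 ribosomal proteins lay below DMSO at both levels, with medians of -0.14 and -0.40, and RPL32 read 14.15, 13.72 and 13.31. The value at 10 µM was -0.10 without the suffixed probe sets and -0.25 under quantile normalization. Of 20 proteasome subunits 16 lay below and 1 above, with medians of -0.14 and -0.35, which became -0.17 by the median over probe sets. Of 17 respiratory chain genes 12 lay below and 2 above, with medians of -0.12 and -0.37. No gene of these 3 lists passed 1.5-fold at both levels. In fuller families drawn up later, 47 of 58 cytosolic ribosomal proteins, 50 of 77 mitochondrial ribosomal proteins, 25 of 33 proteasome subunits and 22 of 34 complex I subunits lay below DMSO at both levels. Over the same arrays the contrast of 3' and middle probe sets rose from 0.28 to 0.84. Its part in these medians was not tested. It rose in the same order as the compound levels, so the 2 cannot be told apart.

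Genes of ER stress, which the study's title names, lay near DMSO in this line. ATF4 and CHOP targets had medians of -0.08 and -0.15, against 2.19 and 2.90 in the Twist line. Of 17 measured, 3 lay above DMSO at both levels (17.6%) and 9 below (52.9%), against 34.9% and 41.2% of all measured genes. DDIT3, which encodes CHOP, read 5.26, 5.62 and 5.38, and ATF3 read 4.62, 5.01 and 4.83. The 20 ER chaperone and folding genes had median changes of -0.05 and -0.07, and HSPA5, the chaperone BiP, read 13.63, 13.72 and 13.59. The sign of HSPA5 at 10 µM flips under quantile normalization, from -0.03 to 0.12. ER-associated degradation and stress sensors had medians of -0.01 and -0.08, and amino acid transport and synthesis of 0.02 and 0.11. No member of these lists passed 1.5-fold at both levels.

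Of the 35 lists 18 had medians within 0.1 of 0 at both levels. They were cytosolic tRNA synthetases, ER chaperones, ER-associated degradation, cytosolic heat shock proteins, NRF2 targets, cholesterol synthesis, the G1/S and mitosis lists, immediate early factors, MAP kinase feedback, interferon response, apoptosis regulators, autophagy and lysosome, hypoxia and glycolysis, YAP and TEAD targets, Notch genes, ribosome biogenesis and mesenchymal markers. Fatty acid synthesis, at -0.14 and -0.05, lay just outside. At 10 µM the median of Notch genes was -0.32 without the suffixed probe sets. That of cytosolic tRNA synthetases was -0.25 by the median over probe sets. Single members still differed. HSPB1, a small heat shock protein, read 12.82, 12.08 and 11.79, and VIM, vimentin, read 11.68, 11.15 and 10.98. CD14, PECAM1 and FABP4, the measured markers of other cell types, had medians of -0.22 and -0.40.

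**Figure D4:**
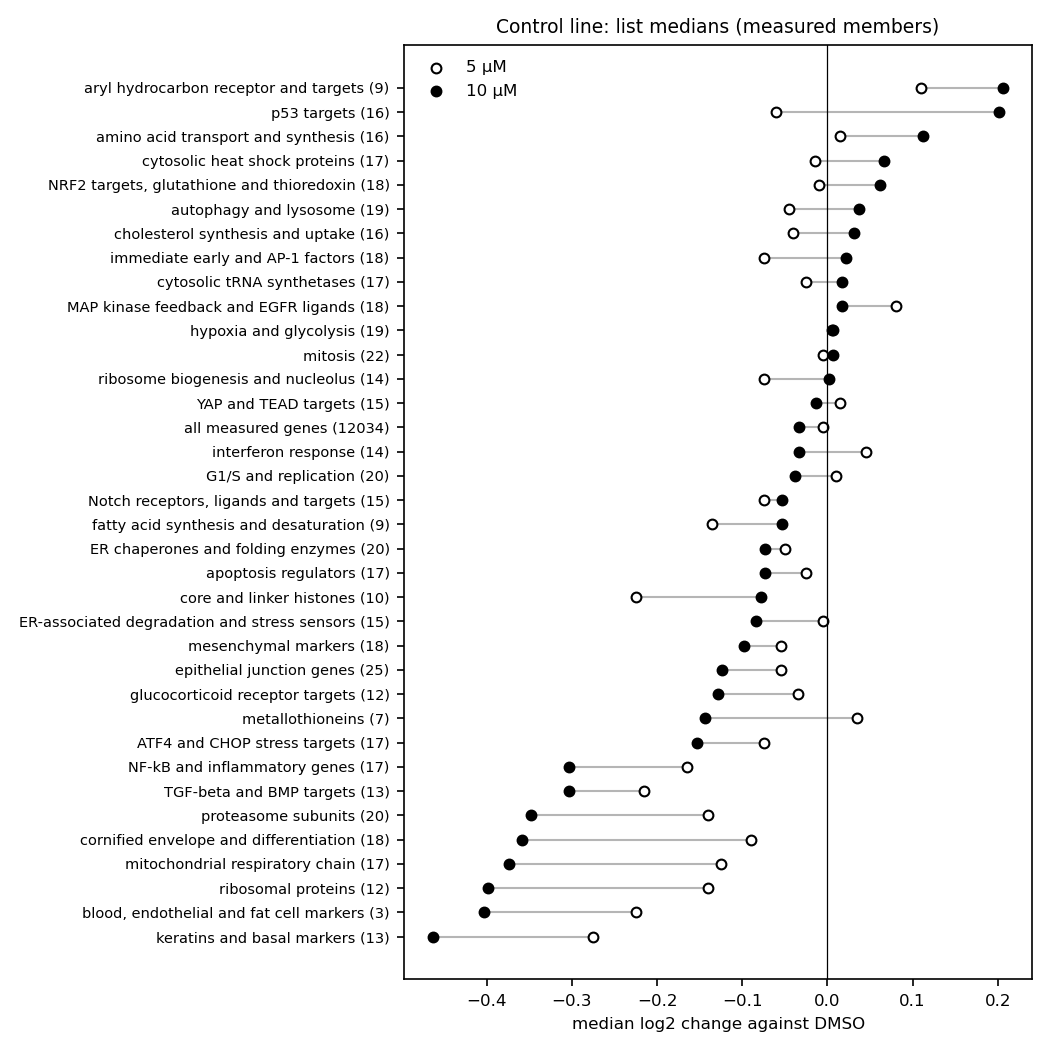
Median log2 change against DMSO of the measured members of each gene list in the control line at 5 µM (open points) and 10 µM (filled points), with the number of measured members in brackets. The keratin and basal list lies lowest at -0.46 at 10 µM and the aryl hydrocarbon receptor list highest at 0.21.

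Several genes passed 2-fold at 1 level alone, and these were named after their values were seen. At 10 µM alone 21 genes were higher and 26 lower. COL1A1, a fibrillar collagen chain, read 8.70, 8.82 and 11.30, the widest difference of any measured gene, but another of its probe sets read 5.79, 5.92 and 5.77 and the next 4.17, 4.35 and 4.35. MYC read 11.64, 11.16 and 10.15, FOS read 6.44, 5.76 and 5.13, and TNFSF10, the death ligand TRAIL, read 7.21, 7.51 and 8.45. The other measured probe sets of TNFSF10 were also highest at 10 µM, at 7.90 and 6.81. At 5 µM alone 4 genes were higher and 3 lower, among them HOXB9 at 6.93, 5.55 and 6.60. Set against 5 µM, the 10 µM array had 5 genes 2-fold higher (0.0418%) and 11 lower (0.092%).

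The Twist line was read for the same genes. Its changes played no part in the choice, but its arrays entered the scaling, the floor and the pick of the brightest probe set. The Twist line had 1120 of 11868 genes past 2-fold either way at 5 µM (9.44%) and 1968 of 11931 at 10 µM (16.5%). Of the 48 higher genes 44 were measured there, and 34 of these lay below Twist DMSO at both levels (77.3%), 3 above. Of all genes above DMSO at both levels in the control line and measured in the Twist line, 71.5% lay below Twist DMSO at both levels, so the members' share was near that of other such genes. Over all genes, 44.1% lay below. The median of the 44 was -0.56 at 5 µM and -0.60 at 10 µM. VHL read 8.73, 6.84 and 6.82 and MCM3AP-AS1 9.56, 8.26 and 7.74 there, both highest with DMSO. RABGEF1P1, TRMT2B and MAPK12 were the 3 genes above DMSO at both levels in both lines.

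Of the 61 lower genes 25 were at the floor on all Twist arrays (41.0%), against 6.28% of all genes measured in the control line. Of the 36 measured, 22 lay above Twist DMSO at both levels (61.1%) and 11 below, with medians of 0.52 and 0.62. Of all genes below DMSO at both levels in the control line, 66.8% lay above Twist DMSO at both levels, and of all genes 44.2% did. HSPB1 read 11.59, 12.84 and 12.80 there. The 11 below DMSO in both lines were PSPN, FOXA1, NECTIN1, TUBA4A, LAYN, AOX1, GSN, TMPO-AS1, RAC2, TGIF2 and IGFL2. FOXA1 read 4.78, 3.99 and 4.11 in the Twist line, and GSN, the actin-severing protein gelsolin, read 10.29, 9.66 and 9.27 in control cells against 9.19, 8.58 and 7.79 in Twist cells. The 3' to middle contrast also ran in opposite directions in the 2 lines, and its part in these patterns was not tested.

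**Figure D5:**
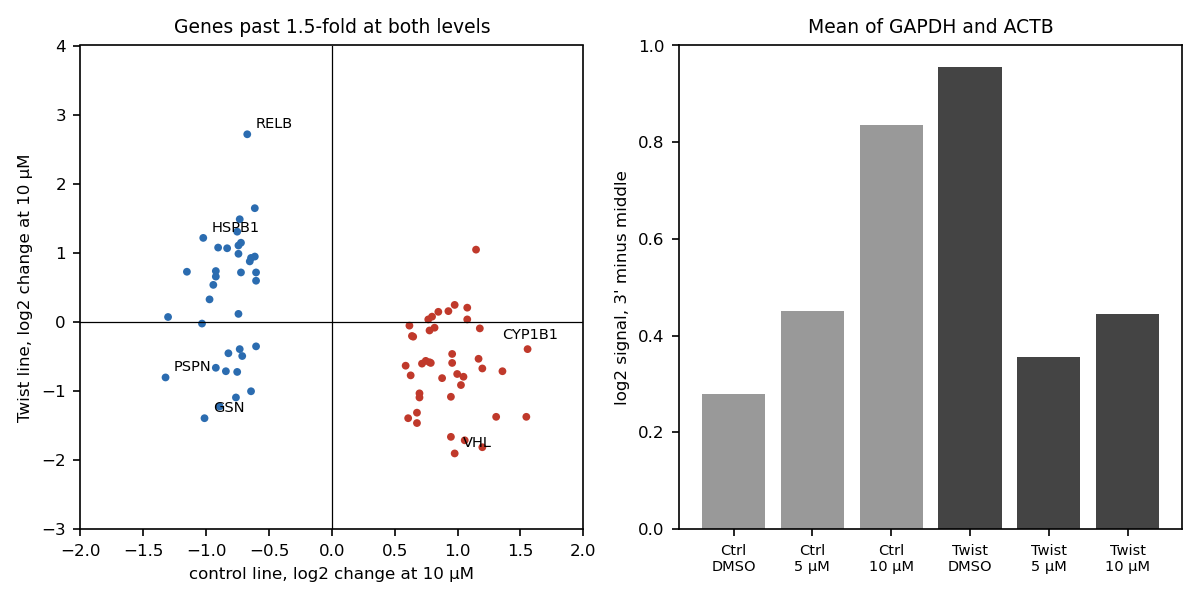
Left, log2 change at 10 µM in the Twist line (y axis) against the control line (x axis), red for higher and blue for lower. The points are most of the genes past 1.5-fold at both levels in the control line and measured in the Twist line. Right, log2 signal at the 3' end minus that of the middle, averaged over GAPDH and ACTB, on each of the 6 arrays. It rises from 0.28 to 0.84 with the compound in control cells and falls from 0.96 to 0.36 and 0.45 in Twist cells.

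A limma fit that took both levels as repeats of the compound found no gene at an adjusted p under 0.05 among 12478 tested (0%), with a smallest adjusted p of 0.558. At an unadjusted p under 0.05 it gave 1099 genes (8.81%), 416 higher and 683 lower. The fit used all 6 arrays, with the compound taken within each line. With 2 residual degrees of freedom, its spread comes from the step between levels and not from replicates. The step in the Twist line is part of that spread. The difference between the compound effects in the 2 lines passed an adjusted p under 0.05 for 3314 of the same genes (26.6%). The 8 genes past 2-fold all had the same adjusted p of 0.558.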

How the data were processed

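RNA from 6 samples of HMLE cells, 1 per group, was measured on Affymetrix U133 Plus 2.0 arrays, and 3 control-line arrays were compared. The deposited values were taken as log2 signals from their range, since the labels name no unit. The authors used GCOS 1.2 per the submitters' processing notes. Background correction, summarisation and normalisation are not given in the sources used here.

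Of 54675 probe sets, 62 controls were dropped, and 41091 had 1 symbol in the platform annotation, 1801 several and 11721 none. Arrays were shifted to a common median over the brighter probe sets, by at most 0.03. A floor was set at the 50th percentile, 3.71. A gene was read by its brightest probe set with 1 symbol, by mean signal over the 6 arrays. Signal depth has no counterpart on arrays, and their number limits the precision. Limma 3.58.1 in R 4.3.3 was tested on simulated data, with Benjamini-Hochberg adjustment.

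The text names the 15 highest and 15 lowest genes ranked by the smaller change, above the floor on all 3 arrays, with no other probe set opposite at both levels and down to 1.5-fold, the leading members of each list, and DDIT3, ATF3, HSPA5, CDH1 and VIM. Members and lists were chosen with earlier results of these data known. Alternatives were other scalings, floors, filters, fold thresholds and probe set rules, and other fits.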

Additional observations from a re-analysis of the deposited data

Results flagged for a closer look

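The genes were chosen by their control-line change, which the following differences from the Twist line use again, so they describe the genes and give no support. Of the 30 ranked genes 17 were measured in the Twist line, and for 12 of these the compound effect in the control line minus that in the Twist line passed limma's adjusted p of 0.05, as it did for 26.6% of all 12478 genes. The 13 ranked genes at the floor on every Twist array are left out, since their difference is the control-line change alone. Among the genes higher in the control line the difference was 2.88 log2 units for VHL, 2.63 for ATXN7L3-AS1, 2.54 for MCM3AP-AS1, 2.40 for RNF139-DT and 2.15 for LOC105372255. It was 1.94 for MIR34A, 1.69 for LINC01410, 1.64 for SMG1P5, 1.42 for TIGD4, 1.37 for LINC00342 and 1.17 for FDPSP2. Among the genes lower in the control line it was -1.25 for MYEOV. CYP1B1 did not pass, with an adjusted p of 0.0995.

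The medians of 19 of the 35 lists at 10 µM had opposite signs in the 2 lines, and these differences were not tested. In 5 lists the medians lay at least 0.1 from 0 at both levels in both lines, on opposite sides. In the control line they were -0.30 for NF-kB and inflammatory genes, -0.30 for TGF-beta and BMP targets, -0.35 for proteasome subunits, -0.40 for ribosomal proteins and -0.37 for the respiratory chain. In the Twist line they were 2.17, 0.32, 0.61, 0.68 and 0.64 in the same order.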

How the results depend on the processing

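No named change past 2-fold took the opposite sign, but the balance of higher and lower genes turned under some settings. With the deposited scaling 5 genes were 2-fold higher at both levels, and with quantile normalization 5 were, with 30 higher and 20 lower at 10 µM. The deposited scaling gave 10 higher and 7 lower at 5 µM. A floor at the 65th percentile gave 3 higher and 5 lower genes at 5 µM and 1 higher at both levels, losing GBP6, MIR34A and POU2F3. The median over probe sets gave 4 lower at 5 µM, 14 higher and 17 lower at 10 µM, and 1 higher and 3 lower at both levels, losing CYP1B1, GBP6, PTAFR and SLC6A11. Without suffixed probe sets 13 genes were higher and 8 lower at 5 µM, 44 and 22 at 10 µM, and 8 and 5 at both levels, without CYP1B1. At 1.5-fold the counts were 82 higher and 153 lower at 5 µM, 205 and 552 at 10 µM, and 48 and 61 at both levels. Limma called no gene in any alternative but the one with no filter, which gave 3 higher and 62 lower. Of these 65 genes 42 lay above the floor on 1 array only. The control line alone gave 888 genes at an unadjusted p under 0.05. Of the values of named genes 1430 moved by less than the SD between probe sets and 84 by more, with 19 of opposite sign in 12 genes. Of the list medians 412 moved by less than that SD and 8 by more. The medians of 14 lists at 10 µM, none larger in size than 0.202, took the opposite sign in at least 1 alternative. No paired analysis was possible because each group had 1 array and the labels give no replicate numbers. Signal near the floor limits the dim genes.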

Other observations

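Tubulins were not among the lists used above, and as a family of 21 measured genes they had medians of -0.02 at 5 µM and -0.27 at 10 µM. TUBB, a beta-tubulin, was at 13.75 with DMSO, 13.18 at 5 µM and 12.73 at 10 µM, and TUBA4A was at 13.53, 12.87 and 12.81. TUBB2B read 4.62 with DMSO and was at the floor with the compound. The brightest probe sets of TUBB and TUBB2B carry a suffix for possible cross-hybridisation. Of the 2 other measured probe sets of TUBB, 1 lay below DMSO at both levels and 1 above. Of the family 11 genes lay below DMSO at both levels and 6 above. Kallikreins, secreted serine proteases of squamous epithelia, had medians of -0.30 at both levels, with 7 of 10 measured members below DMSO and 1 above. Of 11 measured chemokines 9 lay below at both levels and 1 above, with medians of -0.10 and -0.25. Zinc finger ZNF genes had medians of 0.04 and 0.02 over 382 members, and none passed 1.5-fold at both levels. Of all measured genes 41.2% lay below DMSO at both levels and 34.9% above. The families of this section were drawn up after the values were seen.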
